A study of Mus musculus with 18 samples.

Results

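The comparison covers the 6 libraries made from adult mouse neural stem cells (NSCs) treated with hydrogen peroxide (H2O2) and sequenced from 10 pg or 100 pg of RNA, of 18 libraries in the series. They were taken as every H2O2 column of the unfiltered gene tables of these inputs, and each 10 pg library was set against the 100 pg library with the same culture code (F5, F8 or M9). The cells were cultured dentate gyrus NSCs from C57Bl6J mice aged 6 to 9 weeks, at passage 6 to 15, and carried no transgene or deletion named in the labels. The study kept a female and a male line, each begun from several pooled mice. The codes F5 and F8 thus point to one line. In the paired tests below, p-values weigh the difference between inputs against how far that difference varied over these cultures. Each culture gave a single library per input, so variation from library making is included. All 3 cultures received 500 uM H2O2 for 24 h, and RNA of each culture was diluted in series to 1000 pg (1 ng), 100 pg and 10 pg before complementary DNA was made with a template-switching kit. The remaining libraries were 3 of H2O2-treated cells at 1 ng and 9 of vehicle-treated cells of the same cultures at the same inputs. The comparison therefore asks what the same treated RNA reports when much less of it enters the library, and a difference between inputs is no response of the cells.

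Neural stem cells of the dentate gyrus divide to give new granule neurons or rest in a quiescent state held by BMP and Notch signalling. Hydrogen peroxide oxidises protein and DNA, and cells answer it through NRF2, which induces glutathione and antioxidant enzymes, and through p53, which halts the cycle. In template switching, a reverse transcriptase copies a polyadenylated RNA from its tail to its 5' end and there adds the sequence needed for amplification, so an RNA that is not copied to its start is not amplified, and 10 pg is close to the RNA content of an individual mammalian cell.

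Values are reads scaled to a common library total (CPM), given in the order F5, F8 and M9 throughout. The 6 libraries held between 10850553 and 13051643 reads, so depth was alike at both inputs. Over 6 markers of neural stem and progenitor cells, the summed level lay between 3170 and 3431 CPM at 100 pg and between 3360 and 4118 CPM at 10 pg. Over 4 neuron markers the sum was at most 5.40 CPM, over 5 microglia markers at most 15.8 CPM and over 5 endothelium and pericyte markers at most 20.0 CPM, and Tmem119, Aif1 and Cldn5 had 0 reads in all 6 libraries. The 4 astrocyte markers summed to 253, 237 and 263 CPM at 100 pg and 406, 121 and 516 CPM at 10 pg. In longer lists of 10 genes, endothelium and pericyte genes summed to 42, 63.3 and 87.3 CPM and then 93.4, 0.0888 and 53.6 CPM, mostly through Notch3, and in a list of 18 the genes of neuronal differentiation summed to between 1108 and 1347 CPM. Oligodendrocyte lineage markers were high, at 3445, 3829 and 3667 CPM at 100 pg and 2049, 2823 and 2492 CPM at 10 pg, through Olig1 and Olig2, while Sox10 and Mbp had 0 reads in all 6. Genes of the Y chromosome reached at most 0.266 CPM in F5 and F8, and Xist had 0 reads in M9, so the libraries matched the sex in the codes. These genes cannot tell F5 from F8.

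The coding starts of 8 genes are shown first, to give the range of base composition among genes with far fewer reads at 10 pg than at 100 pg and in a gene without such a loss. Except in Neto2 they lie downstream of the 5' untranslated region, so they are not the first bases of the transcript, whose composition is described further on. Each run is the first 120 coding bases of the gene's annotated transcript (GRCm38, GENCODE M21), from the start codon, with the 40 consecutive bases richest in G and C in capitals. Igfbp3 (chr11:7206086-7213923, minus strand), which encodes a secreted carrier of insulin-like growth factors, Mtch1 (chr17:29332072-29347934, minus strand), which encodes a mitochondrial outer membrane protein, and Lamp1 (chr8:13159161-13175338, plus strand), which encodes a lysosomal membrane glycoprotein, were high at 100 pg alone. Gclc (chr9:77754535-77794485, plus strand), the catalytic subunit of glutamate-cysteine ligase, was also highest at 100 pg. Lamc1 (chr1:153218922-153332786, minus strand), a laminin chain, and Ptprs (chr17:56412426-56476483, minus strand), a receptor tyrosine phosphatase, were low at 10 pg. Vim (chr2:13573927-13582826, plus strand), the intermediate filament protein vimentin, did not separate the inputs, and Neto2 (chr8:85636588-85700924, minus strand), an auxiliary subunit of kainate receptors, was low at 10 pg although the start of its annotated transcript, which begins at the start codon, is poor in G and C.
Igfbp3: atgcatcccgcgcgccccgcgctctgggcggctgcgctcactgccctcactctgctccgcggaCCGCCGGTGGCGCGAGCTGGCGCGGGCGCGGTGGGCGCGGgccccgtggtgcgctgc
Mtch1: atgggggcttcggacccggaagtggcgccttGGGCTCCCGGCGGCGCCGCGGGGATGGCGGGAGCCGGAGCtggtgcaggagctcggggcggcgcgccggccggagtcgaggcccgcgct
Lamp1: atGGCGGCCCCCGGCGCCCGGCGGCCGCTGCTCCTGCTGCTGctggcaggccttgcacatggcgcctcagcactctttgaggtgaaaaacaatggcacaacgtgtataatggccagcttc
Lamc1: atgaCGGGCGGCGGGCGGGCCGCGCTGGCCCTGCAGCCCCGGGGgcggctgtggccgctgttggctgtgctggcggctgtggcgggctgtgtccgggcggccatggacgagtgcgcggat
Gclc: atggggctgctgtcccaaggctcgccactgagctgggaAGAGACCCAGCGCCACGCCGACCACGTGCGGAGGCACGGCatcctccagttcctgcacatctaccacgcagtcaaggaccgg
Ptprs: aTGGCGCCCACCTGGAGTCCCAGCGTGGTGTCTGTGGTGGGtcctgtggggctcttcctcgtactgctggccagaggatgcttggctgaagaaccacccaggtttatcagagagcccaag
Vim: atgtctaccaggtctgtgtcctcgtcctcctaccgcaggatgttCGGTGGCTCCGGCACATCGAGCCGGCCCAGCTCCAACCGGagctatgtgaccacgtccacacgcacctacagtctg
Neto2: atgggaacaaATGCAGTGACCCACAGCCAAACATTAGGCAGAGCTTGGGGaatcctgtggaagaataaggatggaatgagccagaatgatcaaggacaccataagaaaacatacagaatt
The capitals hold 90.0% G and C in Igfbp3, 87.5% in Mtch1, 87.5% in Lamp1 and 92.5% in Lamc1, but 75% in Gclc, 70% in Ptprs and 55% in Neto2, at or below the 75% of Vim. Among these 8 genes, the capitals thus did not separate all the genes low at 10 pg from Vim, the only gene shown without a loss. Of genes described further on, Ybx1 had 92.5%, Lrig1 82.5% and Fyn 67.5%. Over all 120 bases Gclc, at 65.8%, was above Vim, at 61.7%, while Ptprs (60.8%) and Neto2 (43.3%) were below it.

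To compare how many genes each input reached, genes with reads were counted per library. At 100 pg 20919, 18545 and 20223 genes had at least 1 read, and at 10 pg 14002, 13291 and 13928 had. The means were 19896 ± 1220 and 13740.3 ± 391 (SD, n = 3 cultures), every 10 pg library lay below every 100 pg library, and the exact permutation test over cultures gave p = 0.25, the smallest that 3 pairs allow. The loss shrank with the level: 77.8% as many genes reached 1 CPM at 10 pg as at 100 pg (11341 to 11705 against 14606 to 15013), and 89.8% as many reached 10 CPM. At 100 CPM the order turned, with 2321, 2439 and 2501 genes at 10 pg against 2260, 2375 and 2379 at 100 pg. The cultures also shared fewer genes. Of the genes at 1 CPM or more in any culture, 87.7% were so in all 3 at 1 ng, 78.6% at 100 pg and 58.5% at 10 pg.

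The genes that vanished were not only rare ones. In F5, F8 and M9, 7686, 5722 and 6880 genes with reads at 100 pg had 0 at 10 pg, against 769, 468 and 585 in the reverse direction. Genes were then placed by their mean level in the 1 ng libraries, which take no part in the comparison. Among 3417 genes of 10 to 30 CPM at 1 ng, 16.3%, 18.2% and 14.3% had 0 reads at 10 pg, against 0.117%, 0.0878% and 0.0293% at 100 pg. In this class 63.1% of the 3417 had reads in all 3 libraries of 10 pg, and 50 (1.46%) were at 0 in all 3. Most genes with a loss thus had it in some cultures and not in all. Whether losses recurred in the same genes more often than unrelated losses would was not tested. Above 100 CPM at 1 ng, at most 0.0548% of genes were at 0 in any 10 pg library.

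**Figure D1:**
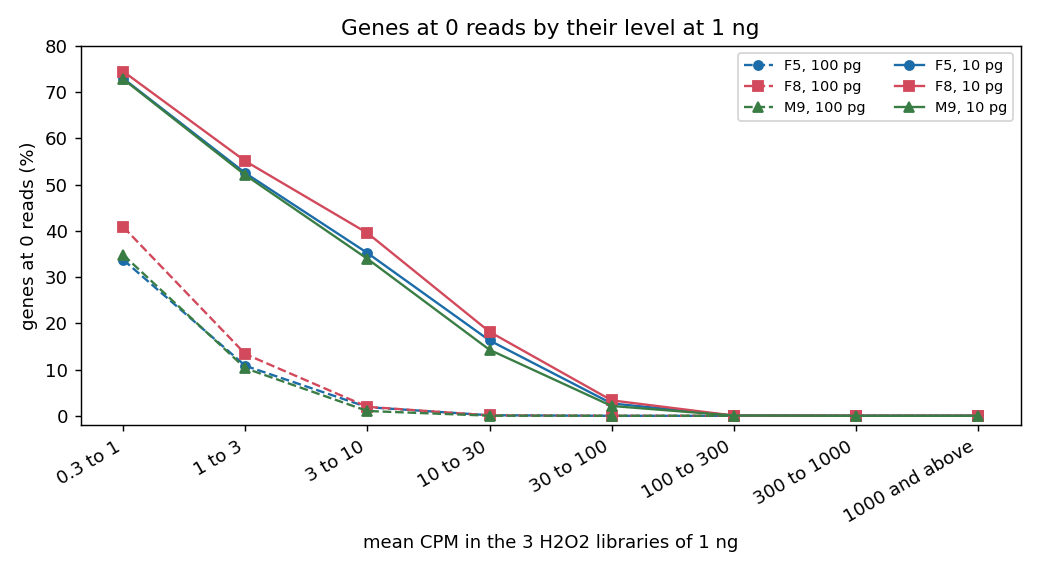
Percentage of genes with 0 reads in each H2O2 library (vertical axis) against the gene's mean CPM in the 3 H2O2 libraries of 1 ng (horizontal axis, 8 classes). Solid lines are 10 pg, dashed lines 100 pg, and each colour is a culture. Among genes of 10 to 30 CPM the 10 pg libraries sit between 14.3% and 18.2% and the 100 pg libraries at or below 0.117%.

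Gene by gene, the inputs were compared with limma on log2(CPM + 1), with culture as a block, over 14653 genes with a mean of at least 1 CPM. A difference on this scale is 10 pg minus 100 pg and understates the change of low genes. At a Benjamini-Hochberg adjusted p under 0.05, 1 gene was lower at 10 pg (0.00682% of genes tested) and 0 were higher. At an unadjusted p under 0.05, 1634 genes were lower (11.2%) and 204 higher (1.39%), and the median over all genes was -0.23. On reads recovered from the deposited values, edgeR's quasi-likelihood test called 0 genes (860 lower and 144 higher at an unadjusted p under 0.05), and DESeq2 called 2350 lower (16%) and 355 higher (2.42%) at an adjusted p under 0.05. The number of calls thus depended on the method. Genes at least 2-fold lower in all 3 cultures, counted with no test, numbered 1210 (8.26%), and 31 were at least 2-fold higher (0.212%).

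The called gene was Igfbp3. It stood at 628, 436 and 352 CPM at 1 ng, 6643, 3767 and 2995 CPM at 100 pg and 367, 271 and 178 CPM at 10 pg, so each culture rose steeply from 1 ng to 100 pg and came down again at 10 pg, with no overlap between 100 pg and either other input. The mean at 100 pg was 16.4 times that at 10 pg, a difference of -4.01 on the log2 scale (SE 0.10, limma adjusted p = 0.00521). The order of the cultures, F5 above F8 above M9, was the same at all 3 inputs. In vehicle-treated cells Igfbp3 read 264, 242 and 242 CPM at 1 ng, 2476, 2425 and 1508 CPM at 100 pg and 189, 189 and 100.2 CPM at 10 pg, the same rise and fall in libraries that share no RNA with the treated ones. The call was lost with edgeR (adjusted p = 0.0841) and, with limma, without F5 (adjusted p = 0.125) or without M9 (adjusted p = 0.167). Against 1 ng, the 10 pg libraries were lower by a smaller amount (-0.81, limma adjusted p = 0.0839). Hence the input to which 10 pg is compared set the size of the difference.

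The genes next in order did not pass the threshold, and several shared the shape. Lamp1 stood at 156, 158 and 139 CPM at 1 ng, 1054, 1064 and 912 CPM at 100 pg and 38.7, 57.1 and 24.8 CPM at 10 pg (-4.69, SE 0.23, limma adjusted p = 0.0509). Prkcb, a protein kinase C, stood at 108, 187 and 146 CPM at 1 ng, 418, 796 and 477 CPM at 100 pg and 40.7, 83.7 and 45.4 CPM at 10 pg (-3.31, SE 0.16, limma adjusted p = 0.0509). In both the 100 pg libraries lay above every library of the other inputs. Mtch1 had a wider gap, with 10.4, 9.71 and 11.2 CPM at 1 ng, 257, 265 and 242 CPM at 100 pg and 0.0922, 0.799 and 0.851 CPM at 10 pg (-7.38, SE 0.52, limma adjusted p = 0.118). Lrig1, a brake on epidermal growth factor receptors, and Atp2a2, the calcium pump of the endoplasmic reticulum, had smaller peaks. Lrig1 read 199, 161 and 219 CPM at 1 ng, 775, 496 and 658 CPM at 100 pg and 223, 128 and 223 CPM at 10 pg, and Atp2a2 read 115, 114 and 119.6 CPM at 1 ng, 347, 367 and 362 CPM at 100 pg and 81.8, 75.5 and 66.8 CPM at 10 pg. At 10 pg Lrig1 was near its level at 1 ng and Atp2a2 below it.

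The transcription factors Olig1 and Olig2, which specify the oligodendrocyte lineage and lie close together in the genome, parted. Olig2 stood at 29.6, 33.5 and 31.1 CPM at 1 ng, 1215, 1209 and 1026 CPM at 100 pg and 11.9, 32.8 and 41.2 CPM at 10 pg (-5.44, SE 0.41, limma adjusted p = 0.118). Olig1 stood at 2175, 2460 and 2483 CPM at 1 ng, 2228, 2620 and 2640 CPM at 100 pg and 2017, 2790 and 2451 CPM at 10 pg (-0.05, SE 0.06). Olig2 was therefore low at 1 ng and high in every 100 pg library, and Olig1 was high in all 9. The rise of the oligodendrocyte marker sum at 100 pg, given above, was that of Olig2.

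**Figure D2:**
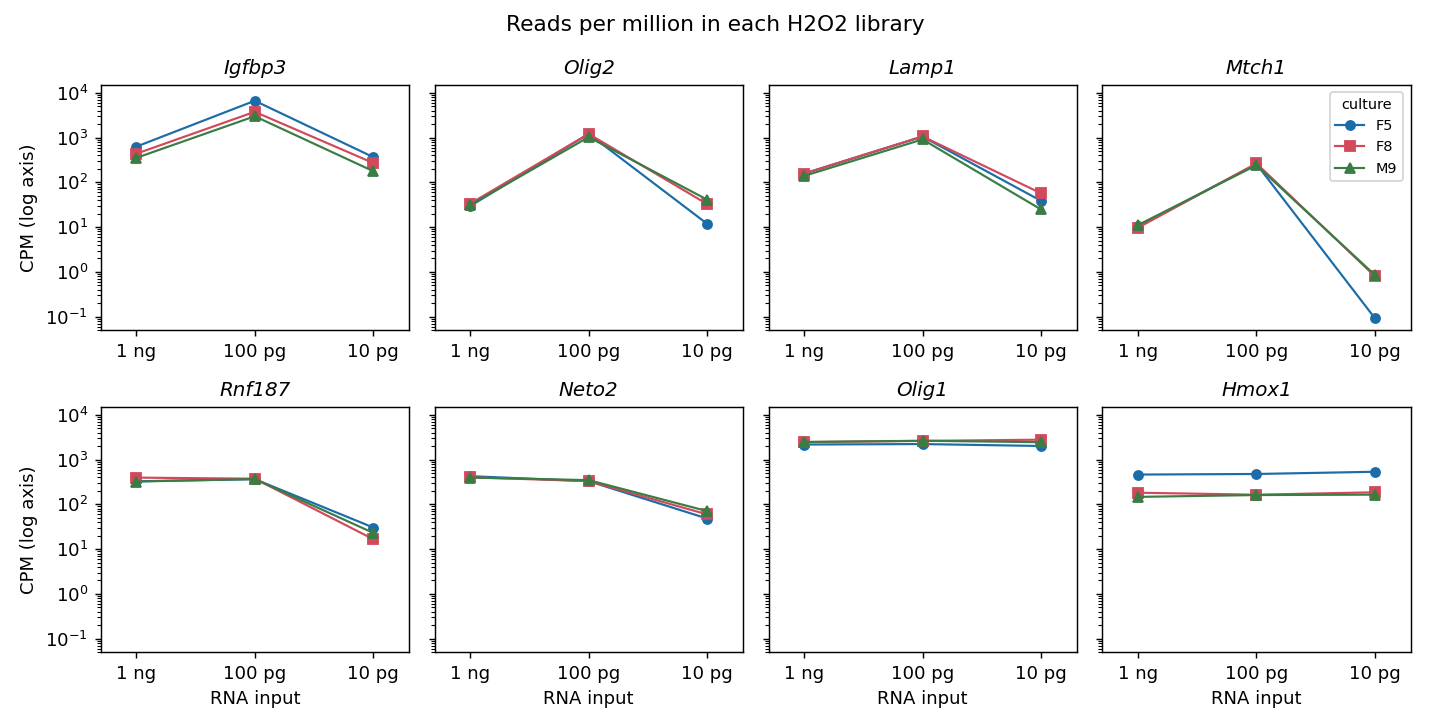
CPM (vertical axis, log scale, shared by all panels) of 8 genes in the H2O2 libraries of 1 ng, 100 pg and 10 pg (horizontal axis), with a line for each culture. Igfbp3, Olig2, Lamp1 and Mtch1 peak at 100 pg, Rnf187 and Neto2 are low at 10 pg alone, and Olig1 and Hmox1 stay level.

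Other genes held from 1 ng to 100 pg and were low at 10 pg alone. Rnf187, a RING-type ubiquitin ligase, stood at 328, 397 and 324 CPM at 1 ng, 367, 375 and 368 CPM at 100 pg and 30.5, 16.8 and 23.1 CPM at 10 pg (-3.96, SE 0.28, limma adjusted p = 0.118). Neto2 stood at 428, 403 and 399 CPM at 1 ng, 330.1, 332 and 348 CPM at 100 pg and 48.4, 59.8 and 70.9 CPM at 10 pg (-2.49, SE 0.20, limma adjusted p = 0.118). For Rnf187 and Neto2 the 3 libraries of 10 pg lay below all 6 others. Ptprs, a receptor tyrosine phosphatase that binds proteoglycans, went from 566, 659 and 590.5 CPM at 100 pg to 113, 125 and 165 CPM at 10 pg (-2.18, SE 0.17, limma adjusted p = 0.118). Lamc1, named after its values were seen, read 619, 924 and 782 CPM at 1 ng, 516, 676 and 540.3 CPM at 100 pg and 91.4, 117 and 52.9 CPM at 10 pg, and Ybx1, an RNA-binding protein named in the same way, read 346, 416 and 424 CPM at 1 ng, 358, 432 and 426 CPM at 100 pg and 55.4, 89.4 and 45.4 CPM at 10 pg. Their 10 pg libraries were below all others too.

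No gene passed the threshold upward, and the genes with the smallest p in that direction ranged from small differences in abundant transcripts to 2-fold and larger ones in genes of lower level. Xpo6, the export receptor of profilin and actin, went from 192, 179.5 and 204 CPM at 100 pg to 440.0, 376 and 402 CPM at 10 pg, with 227, 209 and 183 CPM at 1 ng (1.08, SE 0.13, limma adjusted p = 0.141). Ckb, the brain creatine kinase and an abundant transcript, went from 13250, 13320 and 12530 CPM to 14550, 14400 and 14030 CPM (0.14, SE 0.02, limma adjusted p = 0.141). In both genes the groups did not overlap. Pkm, a pyruvate kinase, Arl6ip1, a shaper of the endoplasmic reticulum, Tcf12, a basic helix-loop-helix factor, Slc39a9, a zinc transporter, and Sptan1, an alpha spectrin, differed by between 0.16 and 1.14, with limma adjusted p from 0.143 to 0.168. Sptan1 was higher at 10 pg than at 100 pg and lower than at 1 ng, since it read 2645, 1993 and 1549 CPM at 1 ng, 1950, 1452 and 1251 CPM at 100 pg and 2300, 1839 and 1451 CPM at 10 pg. Cacna1c, a subunit of L-type calcium channels, and Agmo, an ether lipid monooxygenase, read 2.49, 4.06 and 2.2 CPM and 11.9, 10.2 and 4.87 CPM at 100 pg and 21.3, 40.2 and 29.3 CPM and 48.8, 57.2 and 40.6 CPM at 10 pg. Drp2, a dystrophin relative, had 0 reads in all 3 libraries of 100 pg and stood at 37.9, 14.7 and 20.0 CPM at 10 pg, against 5.82, 5.18 and 1.97 CPM at 1 ng.

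The shapes were counted among 10623 genes with at least 10 CPM at an input, by rules set after the data were seen and so with no test. The steps from 1 ng to 100 pg and from 100 pg to 10 pg share the 100 pg libraries. In 187 genes (1.76%) every culture was at least 2-fold higher at 100 pg than at both other inputs. These genes took 2.99%, 2.63% and 2.41% of all reads at 100 pg, against 0.506%, 0.501% and 0.498% at 1 ng and 0.295%, 0.266% and 0.288% at 10 pg. In 295 genes (2.78%) every culture was at least 2-fold lower at 10 pg than at both others and less than 2-fold apart between 1 ng and 100 pg. In 9 genes every culture was at least 2-fold higher at 10 pg than at both others. In the vehicle libraries, which were made from other RNA, 179 genes met the first rule and 131 of them were among the 187 (70.1% of the H2O2 genes and 73.2% of the vehicle genes). The second rule gave 273 genes in vehicle, of which 75 were shared (25.4% and 27.5%). Higher values at 10 pg did not recur in this way. Of 28 genes at least 2-fold higher at 10 pg than at 100 pg in every H2O2 culture and 22 in every vehicle culture, 0 were shared.

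Of the 187, 5 more are described here, chosen after their values were seen and not as a sample of the rest. Rac1, a small GTPase of the actin skeleton, read 72.4, 83.5 and 75.8 CPM at 1 ng, 689.8, 659 and 725 CPM at 100 pg and 27.4, 81.4 and 65.2 CPM at 10 pg. Ppp2ca, the catalytic subunit of protein phosphatase 2A, read 65.9, 72 and 68 CPM at 1 ng, 589, 523 and 583 CPM at 100 pg and 8.85, 20.5 and 46.8 CPM at 10 pg. Gnb1, a G protein beta subunit, read 108, 102 and 104 CPM at 1 ng, 374, 390.2 and 372 CPM at 100 pg and 97.9, 109.7 and 88 CPM at 10 pg. Each was similar in the 3 cultures at 100 pg and lay there above all libraries of the other inputs. Ptpra, a receptor tyrosine phosphatase, was at 527, 408 and 417 CPM at 100 pg and at 77, 20.8 and 9.78 CPM at 10 pg. Gnas, the stimulatory G protein alpha subunit, read 200.4, 166 and 148 CPM at 1 ng, 1099, 883 and 747 CPM at 100 pg and 65, 112 and 102 CPM at 10 pg, but its reads could not be told from those of the overlapping gene Gm20721, which had nearly the same values.

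The genes of both shapes had transcript starts richer in G and C than the genes considered as a whole, a description also made after the data were seen. The first 300 bases of the annotated transcript had a median of 75% G and C over 183 of the 187 genes with a value, 67.3% over 281 of the 295 genes low at 10 pg alone, and 62.0% over 9720 of the 10623. The last 300 bases gave 42.7%, 40.3% and 42.0% in the same order, and the whole transcript 52.5%, 49.99% and 49.9%. The gap was thus wider at the 5' end than elsewhere. The same property was then followed over genes in general. Among genes of at least 30 CPM at 1 ng, the 2435 whose first 300 bases held 60% to 70% G and C had a median difference of 0.02, 0.02 and 0.02 between 10 pg and 100 pg, the 1122 with 70% to 80% had -0.24, -0.29 and -0.16, and the 54 with 80% or more had -0.90, -0.58 and -0.61. These 3 classes had median levels at 1 ng of 79.1, 74.8 and 52.7 CPM, so the last was also the lowest in level. Of the 2435 genes, 14.2%, 14.5% and 12.8% were at least 2-fold lower at 10 pg, and of the 1122 genes 26.6%, 29.0% and 26.2% were.

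The 1176 genes with the highest G and C in the first 300 bases (70% or more) differed from the 1268 with the lowest (55% or less) by -0.31, -0.35 and -0.20 (mean -0.29 ± 0.07, SD, n = 3 cultures, exact permutation p = 0.25, the smallest possible). The vehicle libraries gave -0.27, -0.25 and -0.16. Between 100 pg and 1 ng the same difference was -0.03, -0.03 and -0.06, so it was smaller at that step in all cultures. The class of 80% or more went the other way there, at 0.10, 0.06 and 0.13, and between 10 pg and 1 ng its medians were -0.53, -0.48 and -0.45. By G and C of the first 120 coding bases, the stretch printed above, the difference between 10 pg and 100 pg was -0.11, -0.05 and -0.01 (mean -0.06 ± 0.05, SD, n = 3 cultures, exact permutation p = 0.25, the smallest possible), smaller than by the first 300 bases in every culture. By G and C of the whole transcript it was -0.09, 0.08 and 0.06, with no common direction. Length separated genes at both steps. The 1218 longest transcripts (at least 5347 bases) differed from the 1220 shortest (at most 1874 bases) by -0.12, -0.26 and -0.15 between 10 pg and 100 pg, and already by -0.35, -0.34 and -0.36 between 100 pg and 1 ng. Composition did not sort every gene. The first 300 bases held 78% G and C in Igfbp3, 77.7% in Mtch1, 76.7% in Lamp1 and 75.7% in Rnf187, but 59% in Olig2 and 44% in Neto2, and Xpo6, which was higher at 10 pg, had 78%. The annotated Neto2 transcript begins at its start codon, so its value leaves out any 5' untranslated region.

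**Figure D3:**
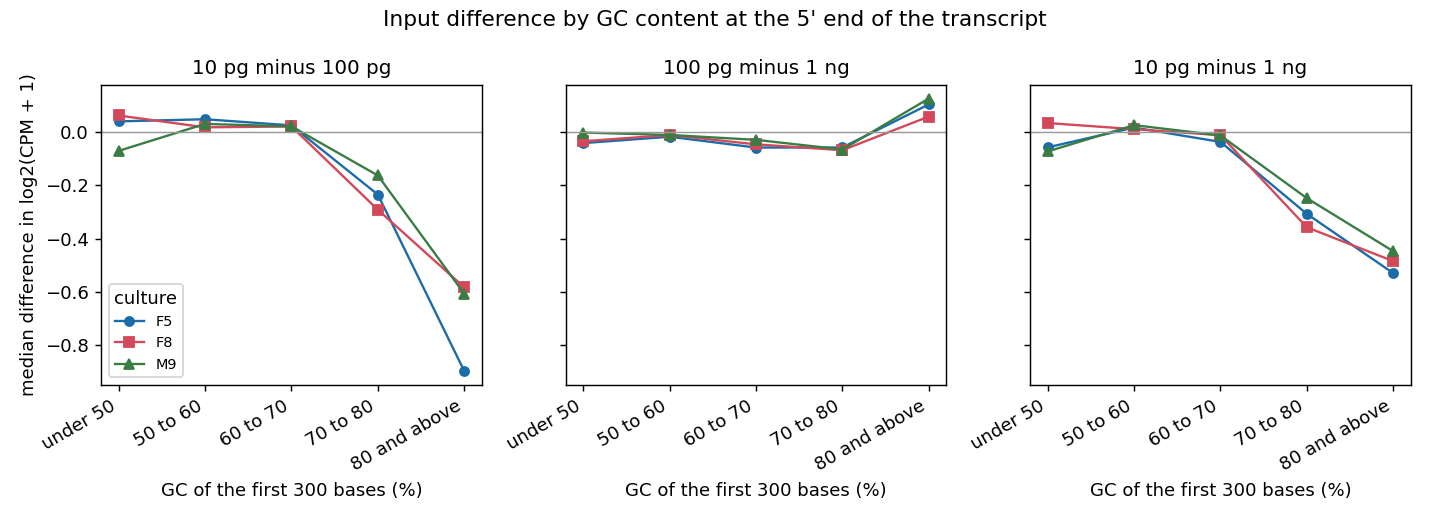
Median difference in log2(CPM + 1) (vertical axis) of genes with at least 30 CPM at 1 ng, in 5 classes by G and C content of the first 300 transcript bases (horizontal axis, %), for each pair of inputs and each culture. Between 10 pg and 100 pg the classes of 70% to 80% and of 80% or more lie below 0 in all 3 cultures, while between 100 pg and 1 ng the class of 70% to 80% lies between -0.06 and -0.07 and the class of 80% or more between 0.06 and 0.13.

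Some genes had no read left. A count of 0 in all 3 libraries of 10 pg allows a level of up to 0.0886 CPM, by counting error alone. In total 1163 genes had 0 reads in all 3 libraries of 10 pg and reads in all 3 of 100 pg, and 67 of these averaged at least 10 CPM at 100 pg, whereas 8 genes had the reverse pattern. The highest of them at 100 pg was Lrrc47, with 54.1, 53.9 and 84.2 CPM. Dnaaf5, a factor for assembly of dynein arms, followed with 40.7, 52.2 and 44.2 CPM and also had 0 reads in the 3 vehicle libraries of 10 pg. At 1 ng they read 5.73, 7.95 and 3.65 CPM and 2.96, 3.05 and 2.47 CPM, so both were high at 100 pg alone. Others were present at 1 ng and at 100 pg alike. Atmin, a partner of the kinase ATM, read 25.3, 26.7 and 29.4 CPM and 44.9, 46.5 and 27.6 CPM, and Nrp2, a receptor for semaphorins, read 27.8, 13.1 and 20.4 CPM and 33.3, 27.4 and 8.63 CPM. In vehicle at 10 pg they read 0.581, 25.5 and 0 CPM and 0, 27.3 and 26.1 CPM, so neither was at 0 in all cultures there. Of the 10 genes highest at 10 pg among those at 0 in all libraries of 100 pg, Drp2 had reads in all 3 cultures, and most others, such as Sash3 (22.9, 0 and 0 CPM) and P2rx2 (23.2, 0 and 0 CPM), had theirs in 1 library.

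Values also scattered more at 10 pg. Between the 2 inputs of a culture the SD over genes, those at 0 reads included, was 2.01, 2.02 and 1.99 on the log2 scale for genes of 10 to 30 CPM at 1 ng, against 0.68, 0.64 and 0.61 between 100 pg and 1 ng, and it fell to 0.16, 0.16 and 0.20 for the 74 genes above 1000 CPM. Over the 3 cultures, the median SD of a gene was 0.31 at 100 pg and 0.80 at 10 pg, 2.58 times as large, and 0.21 at 1 ng. Over 9830 genes of at least 10 CPM at 1 ng, the correlation across genes was 0.905 to 0.943 among the 100 pg libraries and 0.593 to 0.627 among the 10 pg libraries. Dilutions of a culture's own RNA, 10 pg against 100 pg, had 0.744, 0.730 and 0.737. Genes are not independent replicates, and these values describe the libraries.

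Uneven single genes show what this spread looked like. Fam234a stood at 124, 116 and 129 CPM at 100 pg and 290.4, 0.177 and 159 CPM at 10 pg. Cars, the cysteinyl-tRNA synthetase, stood at 73.2, 88.3 and 104 CPM and then 80.9, 0 and 162 CPM, and Srsf4, a splicing factor, at 56.8, 85 and 88.3 CPM and then 0.0922, 114 and 167 CPM. Usp21, a deubiquitinase, stood at 44.1, 51.6 and 51.5 CPM and then 0, 109 and 104 CPM, and Rhbdd2, a rhomboid-like membrane protein, at 87.5, 93.9 and 105 CPM and then 169, 0.0887 and 56.7 CPM. These 5 genes, picked for their spread at 10 pg, were nearly absent from 1 culture there, F8 for Fam234a, Cars and Rhbdd2 and F5 for Usp21 and Srsf4. The other cultures were above their level at 100 pg except for Rhbdd2 in M9, which was below it.

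**Figure D4:**
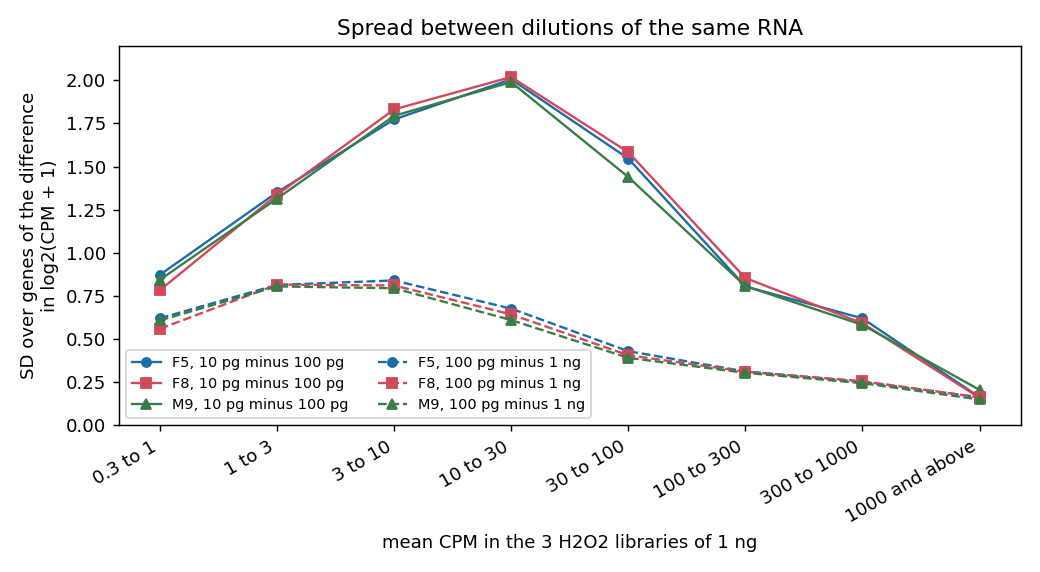
SD over genes of the difference in log2(CPM + 1) between inputs of the same culture (vertical axis) against mean CPM at 1 ng (horizontal axis, 8 classes). Solid lines are 10 pg minus 100 pg and dashed lines 100 pg minus 1 ng, with a colour for each culture. For genes of 10 to 30 CPM the solid lines lie between 1.99 and 2.02 and the dashed lines between 0.61 and 0.68.

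Gene lists chosen for the tissue and the treatment were then described. Over all 14653 genes the median was -0.23, and at an unadjusted p under 0.05 11.2% were lower and 1.39% higher, the shares against which the counts below are to be read. Of the genes that define the stem cell state, 21 of 22 listed were tested, with a median difference of -0.68, 6 lower at an unadjusted p under 0.05 (28.6%), 0 higher, and 9 lower with DESeq2 (42.9%, against 16% of all genes). In vehicle the same list had a median of -0.16, against -0.23 over all genes. Between 10 pg and 1 ng in H2O2 its median was -0.18, against -0.29 over all genes. The median level of these 21 genes at 1 ng was 19 CPM. Their abundant members did not separate the inputs. Nes, the filament protein nestin, read 1190, 1446 and 1313 CPM at 100 pg and 1472, 1439 and 1547 CPM at 10 pg, and Vim read 1973, 1709 and 1640 CPM and 2398, 2098 and 1579 CPM. Slc1a3, a glutamate transporter, read 3333, 1747 and 2716 CPM and 3758, 1718 and 2538 CPM. The groups overlapped for all 3 genes. The 6 lower members were Sox2, Hes1, Hes5, Sox1, Lhx2 and Prom1. Sox2, a transcription factor needed for self-renewal, read 10.8, 9.61 and 7.11 CPM at 1 ng, 59.8, 36.9 and 35.8 CPM at 100 pg and 4.05, 8.52 and 7.57 CPM at 10 pg (-2.56, SE 0.61, limma adjusted p = 0.192), and Hes1, a target of Notch named after its values were seen, read 6.45, 7.39 and 8.19 CPM at 1 ng, 38.5, 24.5 and 34.5 CPM at 100 pg and 2.21, 2.22 and 0.51 CPM at 10 pg (-3.72, SE 0.69, limma adjusted p = 0.143). Both were highest at 100 pg. Sox2 lies within Sox2ot, and counting without strand could not separate them. Quiescence genes had a median of 0.03, with 2 of 20 lower at an unadjusted p under 0.05 (10.0%, near the 11.2% of all genes), 0 higher and 0 called. Fabp7, a fatty acid carrier, Sparc, a matrix protein, and Cpe, a carboxypeptidase, differed by 0.04, 0.09 and 0.04 (SE 0.07, 0.07 and 0.05).

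For the antioxidant response, 28 genes of the NRF2 list were tested. Their median was 0.07, 4 were lower (14.3%, against 11.2% of all genes) and 2 higher (7.14%, against 1.39%) at an unadjusted p under 0.05, and 0 were called by limma. Hmox1, heme oxygenase, read 464, 183 and 147 CPM at 1 ng, 478, 165 and 162 CPM at 100 pg and 536, 187 and 165 CPM at 10 pg. Srxn1, sulfiredoxin, read 471, 152 and 121 CPM at 1 ng, 472, 117 and 149.5 CPM at 100 pg and 474, 159 and 127 CPM at 10 pg, and Fth1, the ferritin heavy chain, read 5830, 3625 and 1869 CPM at 1 ng, 6384, 4138 and 2111 CPM at 100 pg and 6819, 4505 and 2055 CPM at 10 pg. In each, F5 was highest at every input, and the spread between cultures exceeded any difference between inputs. The 4 lower members were Gclc, Gclm, Gsr and Me1, named after their values were seen. Gclc read 27.6, 17.5 and 21.3 CPM at 1 ng, 280.1, 111 and 115 CPM at 100 pg and 79.6, 6.12 and 0 CPM at 10 pg. Its modifier subunit Gclm read 161, 64.1 and 59.6 CPM at 1 ng, 249, 108 and 118 CPM at 100 pg and 35.6, 17 and 11.2 CPM at 10 pg (-2.89, SE 0.33, limma adjusted p = 0.141), and Gsr, glutathione reductase, read 111, 72.2 and 71 CPM at 1 ng, 181, 148 and 143 CPM at 100 pg and 52.2, 20.8 and 3.66 CPM at 10 pg (-3.17, SE 0.68, limma adjusted p = 0.167). These 3 were at least 2-fold lower at 10 pg than at 100 pg in every culture. Me1, the cytosolic malic enzyme, read 473, 328 and 332 CPM at 100 pg and 252, 290.4 and 233 CPM at 10 pg. Among the higher members, Prdx6, a peroxiredoxin, read 1386, 697 and 557 CPM at 100 pg and 1574, 1035 and 696 CPM at 10 pg (0.36, SE 0.10, limma adjusted p = 0.238).

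The p53 targets had a median of -0.08 over 28 genes, with 2 lower (7.14%, against 11.2% of all genes) and 0 higher at an unadjusted p under 0.05. Cdkn1a, the cyclin-dependent kinase inhibitor p21, read 1118, 1106 and 1030 CPM at 1 ng, 1194, 1233 and 1058 CPM at 100 pg and 1105, 1363 and 1287 CPM at 10 pg, and Ccng1, cyclin G1, read 784, 754 and 804 CPM at 100 pg and 485, 689 and 914 CPM at 10 pg. Neither separated the inputs. Plk3, a polo-like kinase named after its values were seen, went from 17.9, 15 and 18.6 CPM to 0, 0.355 and 0.085 CPM (-3.99, SE 0.61, limma adjusted p = 0.141). The AP-1 and immediate early list had a median of -0.42 over 15 tested genes, with 4 lower (26.7%) and 0 higher at an unadjusted p under 0.05. Its median was 0.003 in vehicle and -0.55 between 10 pg and 1 ng in H2O2. Jun and Egr1, its highest members, differed by 0.28 and 0.28 (SE 0.27 and 0.24), while Jund, a further AP-1 subunit named after its values were seen, went from 33.7, 36.9 and 34.1 CPM at 100 pg to 0.0922, 0.533 and 0.17 CPM at 10 pg (-4.84, SE 0.63, limma adjusted p = 0.141). For Plk3 and Jund the inputs did not overlap. Interferon-induced and MHC class I genes had a median of -0.62 over 15 tested, with 5 lower (33.3%) and 0 higher at an unadjusted p under 0.05. Their median was -0.11 in vehicle and -0.61 between 10 pg and 1 ng in H2O2. Of them Stat2, the transducer of type I interferon signals and also named after its values were seen, had 13.2, 34.7 and 17.2 CPM at 100 pg and 0 reads in all 3 libraries of 10 pg. Ifitm3 and Tap1, the highest members, differed by 0.08 and 0.38 (SE 0.22 and 0.27).

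Lists of abundant transcripts had medians near 0, as abundant genes had in general: the 2376 tested genes of at least 100 CPM at 1 ng had a median of 0.03, with 6.02% lower and 4.12% higher at an unadjusted p under 0.05 and a median SD between cultures of 0.18 at 100 pg and 0.39 at 10 pg. The 54 cytosolic ribosomal protein genes had a median of 0.02, with 0 lower and 0 higher at an unadjusted p under 0.05, and their median SD between cultures went from 0.14 at 100 pg to 0.21 at 10 pg. The 69 genes of the respiratory chain and ATP synthase had a median of 0.08, with 0 lower and 0 higher, and SDs of 0.13 and 0.23. The 23 lysosomal genes had a median of 0.04, with 2 lower (Lamp1, described above, and Glb1, beta-galactosidase, named after its values were seen) and 0 higher at an unadjusted p under 0.05, and 2 lower and 4 higher with DESeq2. Glb1 read 127, 119.8 and 107 CPM at 100 pg and 65.1, 34.9 and 69 CPM at 10 pg (-1.11, SE 0.33, limma adjusted p = 0.261), and Ctsd, cathepsin D, read 1859, 1732 and 1479 CPM and 1975, 1854 and 1681 CPM. Chaperones of the endoplasmic reticulum (18 genes) and cholesterol synthesis (22 genes) had medians of 0.06 and -0.06, with 0 lower and 2 higher at an unadjusted p under 0.05 in each (11.1% and 9.09% higher). The 19 tested genes of the integrated stress response had a median of -0.07, with 2 lower (10.5%) and 0 higher. Very long transcripts (median level 37 CPM at 1 ng) had a median of -0.53 over 38 genes, with 4 lower (10.5%, against 11.2% of all genes) and 1 higher. Of 30 listed long noncoding RNAs 23 were tested (median level 9.45 CPM), with a median of -0.57 and 2 lower (8.70%) and 0 higher, although the most abundant, Malat1, read 4399, 3329 and 3356 CPM and 4686, 3328 and 3243 CPM.

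Differences between the treated cultures were seen at all inputs when genes were summed. Mitosis genes (28) summed to 311, 1604 and 2191 CPM at 1 ng, 316, 1471 and 2190 CPM at 100 pg and 190.5, 1613 and 2521 CPM at 10 pg, so F5 was lowest at every input. F5 was the lowest culture for 28, 28 and 24 of the 28 genes at these inputs, against 44.4%, 41.3% and 29.9% of all genes tested. DNA replication genes (31) gave 617, 2008 and 1886 CPM, then 684, 2022 and 1953 CPM, then 783, 2081 and 2148 CPM, with F5 lowest for 31, 30 and 22 of them. The NRF2 list was ordered the other way, at 20506, 13871 and 10173 CPM at 1 ng, 22149, 15427 and 11236 CPM at 100 pg and 23595, 16060 and 11349 CPM at 10 pg, with F5 highest for 26, 26 and 22 of 28 genes (31.0%, 30.5% and 31.1% of all genes). Each list has 1 value per culture and input, so these orders carry no test, and in bulk RNA fewer dividing cells cannot be told apart from less of each transcript per cell.

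**Figure D5:**
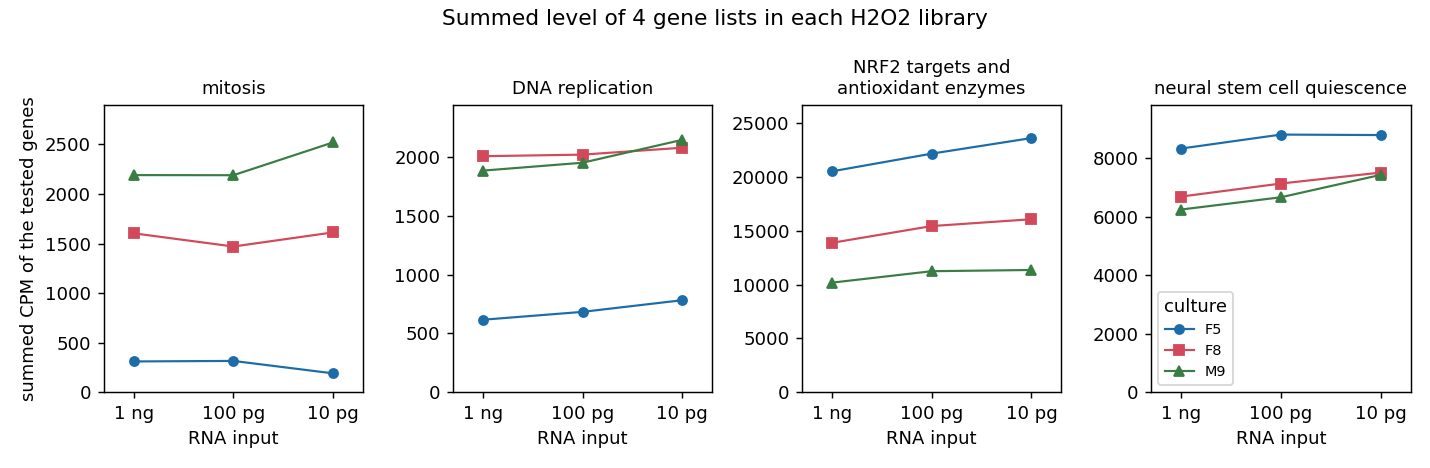
Summed CPM of the tested genes of 4 lists (vertical axes, from 0, a scale for each panel) in the H2O2 libraries of 1 ng, 100 pg and 10 pg (horizontal axis), with a line for each culture. F5 lies lowest for mitosis and DNA replication and highest for NRF2 targets and quiescence at all 3 inputs.

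The 3 single genes described here kept F5 lowest at 10 pg, but their levels moved unevenly between the inputs. Mki67, the proliferation antigen Ki-67, read 11.8, 67.9 and 95.5 CPM at 1 ng, 23, 61.8 and 65.2 CPM at 100 pg and 0.184, 39 and 39.5 CPM at 10 pg. Top2a, the topoisomerase of dividing cells, read 37.6, 175 and 222 CPM at 1 ng, 21.8, 113 and 175 CPM at 100 pg and 0.0922, 59.8 and 339 CPM at 10 pg, and Cdk1, the kinase that starts mitosis, read 12, 76.3 and 86.8 CPM at 1 ng, 13.6, 76.2 and 93.9 CPM at 100 pg and 0.184, 73.4 and 67.1 CPM at 10 pg. In F5 all 3 were low at 100 pg and close to 0 at 10 pg, and in M9 Top2a was higher at 10 pg than at 100 pg while Mki67 was lower. The limma differences were -1.90, -1.45 and -1.38 with SE of 0.92, 1.07 and 0.84, so none passed the threshold (limma adjusted p from 0.507 to 0.676). The vehicle libraries of 1 ng held 419, 482 and 523 CPM of Top2a, without the gap at F5.

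To ask whether the input difference depended on the treatment, the same difference was taken in vehicle and tested against that in H2O2 in one limma fit with each RNA sample (a culture under 1 treatment) as a block. Of 14785 genes, 0 were called at an adjusted p under 0.05 (314 above and 373 below at an unadjusted p under 0.05), and edgeR called 0 as well (197 above and 241 below). Igfbp3 differed by -4.01 in H2O2 and -3.76 in vehicle, Lamp1 by -4.69 and -4.39, Olig2 by -5.44 and -4.83, and Rnf187 by -3.96 and -5.24. The treated and untreated libraries therefore gave these genes the same direction. Of the genes named as higher at 10 pg, Xpo6 differed by 1.08 in H2O2 and 0.48 in vehicle. Ckb, Arl6ip1, Sptan1 and Pkm were also higher in both. Drp2 (4.55 and -1.09), Slc39a9 (1.14 and -0.50), Tcf12 (0.59 and -0.20), Cacna1c (2.98 and -2.78) and Agmo (2.38 and -2.59) were lower in vehicle.

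The study's own filter, CLEAR, keeps transcripts whose reads cover them evenly enough, and its tables list 12536 genes at 100 pg and 6615 at 10 pg, of which 6606 are in both. Among tested genes in both tables (6173), the median difference was 0.01, the SD over genes was 0.89, 0.92 and 0.94, and the median SD between cultures at 10 pg was 0.55. Among the 5153 listed at 100 pg only, the median was -1.24, the SD 2.11, 2.16 and 2.08 and the median SD between cultures 1.97. A gene enters the 10 pg table through its coverage in the same 10 pg libraries, and the median level at 100 pg was 68.7 CPM for genes in both tables and 14.6 CPM for the others, so these values describe the tables and test nothing. In all, 34 genes high at 100 pg alone (0.551%) and 52 low at 10 pg alone (0.842%) were in both tables. With the fit restricted to genes in the 10 pg table, and so by a filter that uses the compared libraries, limma called 40 genes lower and 1 higher of 6438 at an adjusted p under 0.05.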

How the data were processed

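The authors aligned the reads and counted them with featureCounts, ignoring strand per the methods. The submitters' notes name CASAVA 1.8.2, HISAT2 2.0.6 and GRCh38, a human build, while the methods name the mouse build GRCm38. The deposited unfiltered tables hold a normalized signal per gene: read counts that the authors divided by a size factor per library. All values (100%) were whole multiples of a library's value of 1 read, within 1e-06 of a whole number, so reads were recovered and each column was rescaled to CPM. Columns were matched to groups by input, treatment and culture code and not to single sample titles. The deposited CLEAR tables, made by the authors with a coverage filter, were used for gene membership only. Rows that share a symbol (312 symbols) were kept apart, and counts without strand cannot separate overlapping genes.

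Genes with a mean of at least 1 CPM over the 6 libraries were tested with limma 3.58.1 on log2(CPM + 1) with culture as a block. As alternatives, edgeR 4.0.16 (quasi-likelihood) and DESeq2 1.42.0 were run on the recovered reads, which gave 0 genes with edgeR and 2350 lower and 355 higher genes with DESeq2 at an adjusted p under 0.05. Others changed the pseudocount, the filter, the scaling, the block or the cultures used. The pairing by culture code rests on the RNA, since the inputs are dilutions of it, and on a check of deviations from the input means, which correlated by 0.237, 0.105 and 0.163 within a culture and by at most 0.0214 between cultures. These deviations sum to 0 over the cultures in each gene, so the correlations between cultures are not independent of those within a culture. No library repeated another, since pairs from the same input had a chi-square per gene between 25.3 and 172. The fits were tested on simulated data.

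Transcript properties came from 1 transcript per gene (protein coding first, then the longest) of GENCODE M21 on GRCm38, matched by symbol for 93.8% of rows. Named were the 10 genes per direction past the threshold, or else with the smallest p, with a mean of at least 10 CPM, the 10 highest genes at 0 reads in all libraries of an input, the 5 with the largest gain in spread, 24 genes fixed by name and the 3 highest members of each of 24 lists. All members, lists and rules were chosen with earlier results of these data known. The shapes over 3 inputs, the base composition of transcript starts and the comparisons with 1 ng were added after seeing the data. Comparisons between inputs share libraries: 10 pg with 1 ng uses the same 10 pg libraries as 10 pg with 100 pg, and 100 pg with 1 ng the same 100 pg libraries. Vehicle was water per the labels and PBS per the methods. The labels' extraction text also names more than 1 male culture, while the columns carry 1 male code, M9.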

Additional observations from a re-analysis of the deposited data

Results flagged for a closer look

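Cacna1c, which encodes the pore of an L-type calcium channel, and Agmo, which encodes alkylglycerol monooxygenase, stood out because every H2O2 culture was higher at 10 pg than at 100 pg and every vehicle culture was lower. Cacna1c read 2.49, 4.06 and 2.2 CPM at 100 pg and 21.3, 40.2 and 29.3 CPM at 10 pg in H2O2, and 3.62, 7.68 and 7.77 CPM and then 0.0831, 0 and 0 CPM in vehicle. The 2 input differences were 5.76 apart on the log2 scale (limma adjusted p = 0.508). Agmo read 11.9, 10.2 and 4.87 CPM at 100 pg and 48.8, 57.2 and 40.6 CPM at 10 pg in H2O2, and 13.1, 13.5 and 13.6 CPM and then 0, 11.7 and 0.0809 CPM in vehicle, with differences 4.97 apart (limma adjusted p = 0.693). Neither test passed the threshold.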

How the results depend on the processing

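The direction of the counts of genes with at least 1 read or at least 1 CPM held under every alternative run for them, although at 100 CPM the order turned. The difference in genes with at least 1 read was -6155 in the mean of the cultures, -6093 after thinning to the shallowest library and -3584 at a minimum of 10 reads. That in genes with at least 1 CPM was -3297 against -3256 with TMM scaling. The number of called genes did not hold. Genes lower at 10 pg numbered 1, against 3 with a pseudocount of 5 CPM, 19 with a mean of at least 10 CPM, 40 (and 1 higher) among genes in the CLEAR table of 10 pg, 0 with edgeR, 2350 (and 355 higher) with DESeq2, 0 with 1 ng in place of 100 pg, and 0 to 1 when a culture was left out (0 without F5 or without M9). Without the culture block, the unpaired limma fit called 628 lower and 5 higher, and 28 genes in place of 0 for the difference between treatments. The spread between cultures at 10 pg was 2.58 times that at 100 pg, and 2.72 and 2.53 times with pseudocounts of 0.1 and 5 CPM and 2.37 times among CLEAR genes. The SD over genes between the inputs of a culture was 1.67, and 2.70 and 1.03 with those pseudocounts. Sptan1 turned to -0.14 with 1 ng in place of 100 pg. Of all results for single genes under the alternatives, 219 kept their side of the threshold, 51 came to pass it, 4 no longer passed it (all Igfbp3) and 1 reversed. For these changes the cause was not tested, except that fewer genes were tested with the stricter filters. Read depth was alike at both inputs, and the tables give no count of the molecules behind the reads.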

Other observations

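Lists of the cell cycle and of other cell types follow, and several of them held few tested genes. Of all genes tested, 11.2% were lower and 1.39% higher at an unadjusted p under 0.05. Of 28 mitosis genes, with a median of -0.67, 0 were lower and 0 higher at an unadjusted p under 0.05, and of 31 DNA replication genes, with a median of -0.16, 0 were lower and 1 higher. Replication-dependent histone genes are mostly not polyadenylated, and 22 of 57 listed were tested, with a median of -0.01, 1 lower (4.55%) and 0 higher. Hist1h2bc read 104, 107 and 72.5 CPM at 100 pg and 106, 137 and 109.5 CPM at 10 pg. Genes of neuronal differentiation had a median of 0.07 over 10 of 18, with 1 lower (10%) and 0 higher. The lower member was Sox4, named after its values were seen, which encodes a transcription factor of new neurons and read 21.7, 34.8 and 54.1 CPM at 1 ng, 104, 156 and 177 CPM at 100 pg and 10.0, 21.1 and 24.9 CPM at 10 pg (-2.95, SE 0.32, limma adjusted p = 0.141). Map2, a microtubule protein of dendrites, read 411, 631 and 460.5 CPM at 100 pg and 419, 623 and 445 CPM at 10 pg, so it did not share the peak of Sox4. Astrocyte markers had a median of -0.17 over 8 of 10, with 1 lower (12.5%) and 0 higher. The lower member was Slc1a2, a glutamate transporter also named after its values were seen, at 20.4, 13.1 and 19.1 CPM at 1 ng, 14.2, 14.3 and 17.8 CPM at 100 pg and 0.184, 0 and 0.425 CPM at 10 pg. Aldh1l1, the highest astrocyte marker, was uneven at 10 pg, at 381, 104 and 452 CPM against 228, 209.9 and 227 CPM at 100 pg. Microglia markers (2 tested of 10), endothelium and pericyte markers (3 of 10) and transcripts of unrelated tissues (2 of 27) had 1 (50%), 0 and 0 lower and 0 higher. These lists were too small for a share to be read. Oligodendrocyte lineage markers (5 of 10) had 1 lower (20%), Olig2, and 1 higher (20%), and of the 5 genes of the Y chromosome and Xist 0 were lower and 0 higher.

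Further genes were low at 10 pg alone. Fyn, a Src family kinase named after its values were seen, read 278, 304 and 351 CPM at 1 ng, 459, 476 and 540.0 CPM at 100 pg and 3.23, 23.6 and 81 CPM at 10 pg. Odc1, the first enzyme of polyamine synthesis named in the same way, read 211, 225 and 220.4 CPM at 1 ng, 250.4, 219 and 209.5 CPM at 100 pg and 29.3, 64.3 and 50.7 CPM at 10 pg. In both, the 10 pg libraries lay below all others, and the vehicle libraries of 10 pg, at 26.5, 18.2 and 109 CPM and 79.8, 88.4 and 143 CPM, lay below the vehicle libraries of 100 pg, at 489, 455 and 513 CPM and 309, 382 and 368 CPM. Of the genes at least 2-fold higher at 10 pg than at 100 pg in every culture, Dgcr8, which processes primary microRNA transcripts, read 20.2, 23 and 24.2 CPM at 1 ng, 12.3, 14.6 and 15.7 CPM at 100 pg and 78.9, 46.1 and 50.9 CPM at 10 pg, and Syne2, a large protein of the nuclear envelope, read 10.1, 21 and 21.7 CPM at 1 ng, 12.4, 19.3 and 25.3 CPM at 100 pg and 28, 57.2 and 92.3 CPM at 10 pg, both named after their values were seen. In vehicle at 10 pg Syne2 read 0, 74.8 and 0 CPM, so the higher level was seen in 1 culture there.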
